A study of Mus musculus with 9 samples.

Results

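The machinery that carries a cell from G1 into S phase was followed through 9 of its genes across the skin of 4 mouse genotypes: the D-type cyclins Ccnd1, Ccnd2 and Ccnd3, the E-type cyclin Ccne1, the kinases Cdk4 and Cdk6, the pocket protein Rb1, the transcription factor E2f1 and the kinase inhibitor Cdkn1a. They were chosen by name, as D and E cyclins with their kinases and brakes, and each was read from every probe set of the array that is annotated to it and to no other gene. That gave 21 of 22690 probe sets and 9 of the 12393 genes measured. Whole skin was taken from mice 30 days after birth, all of a mixed C57BL/DBA/FVB strain, and each of 9 Affymetrix arrays received 1 RNA pool. The control mice (LC) gave 3 pools, and the transgenic mice gave 2 pools per line (n = 2 each for L60, L84 and LA). The series title names a constitutively active Akt, a kinase that relays signals from growth factor receptors, together with defects of ectodermal structures and impaired bone morphogenetic protein (BMP) signalling. The submitters compared the 4 genotypes with each other. The labels give neither the number of mice in a pool, nor the promoter that drives the transgene, nor what sets the 3 lines apart, so p-values measure only the spread between these pools.

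In G1, D-type cyclins bind Cdk4 or Cdk6 and the complexes phosphorylate Rb1, which otherwise holds E2F factors in check. Released E2F factors switch on genes of DNA replication and also Ccne1, whose product binds Cdk2 and completes the phosphorylation of Rb1. Cdkn1a, known as p21, binds and restrains cyclin-kinase complexes and is a classical target of p53. In skin, the cells that divide are mostly basal keratinocytes and the matrix cells at the base of a growing hair follicle, which feed the hair shaft. Akt is known to act on several of these proteins after translation, by slowing the degradation of cyclin D1 and by keeping p21 and p27 out of the nucleus, steps that an RNA measurement does not read.

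RefSeq upstream windows (GRCm38.p6) were held for 6 of the 9 genes, in 8 windows of 250 bases that end just before an annotated start. None was held for Ccnd1, Ccnd2 or Rb1. The windows of Cdk4 and Cdkn1a are shown because each holds a motif that few windows hold. Capitals in the Cdk4 window mark the palindrome CACGTG, an E-box. Capitals in the window of the distal Cdkn1a start mark a match to the p53 response element, searched on both strands with at most 1 departure from its consensus and no spacer.
Cdk4, chr10:127063285-127063534, plus strand: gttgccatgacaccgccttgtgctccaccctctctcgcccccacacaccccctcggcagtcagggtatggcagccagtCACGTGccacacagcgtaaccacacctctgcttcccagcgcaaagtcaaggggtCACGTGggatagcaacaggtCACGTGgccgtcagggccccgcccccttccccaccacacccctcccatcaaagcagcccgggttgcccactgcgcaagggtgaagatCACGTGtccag
Cdkn1a, chr17:29090729-29090978, plus strand: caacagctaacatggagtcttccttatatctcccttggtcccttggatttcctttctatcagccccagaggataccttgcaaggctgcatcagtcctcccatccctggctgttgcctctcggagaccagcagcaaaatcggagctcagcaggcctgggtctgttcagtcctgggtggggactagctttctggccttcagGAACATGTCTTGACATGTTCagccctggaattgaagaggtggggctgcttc
The Cdk4 window holds 4 copies of CACGTG, whose first bases lie 172, 118, 98 and 11 bases upstream of the start. Of 32851 windows, 1978 (6.02%) held CACGTG at all and 7 (0.0213%) held 4 or more copies. The p53 element of Cdkn1a covers the stretch from 51 to 32 bases upstream, and 25 windows (0.0761%) held such a match. Cdk6 had a single CACGTG, 220 bases upstream, and the windows of E2f1, Ccne1 and Ccnd3 had none. The E2F letters TTTCGCGC, TTTGGCGC, TTTCCCGC or TTTGCCGC, searched on both strands, were in 0 of the 8 windows and in 1.86% of all windows. The E2f1 window lies before an annotated start, and any other start of this gene was not searched. The lack of a match there does not speak for the rest of its promoter sequence. A match is a description of the letters and not a bound site.

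The deposited values are standardised scores. Each probe set has a mean of 0 and an SD of 1 over the 9 arrays, so a score says how an array ranks for that probe set. It gives no expression level and no fold change, and levels of different genes cannot be set against each other. A gene's score is the mean of its probe sets, and a difference is counted in SDs. Differences were tested with limma's linear model across all 12393 genes, with Benjamini-Hochberg adjustment, and a gene was called at an adjusted p under 0.05. By that rule 0 genes (0%) differed between L60 and LC, 70 (0.565%) between L84 and LC and 223 (1.8%) between LA and LC. The median difference of all genes was 0.0777 SDs for L60, 0.00308 for L84 and 0.247 for LA. Features of single arrays cut across the genotypes. Mean scores of 18S ribosomal probe sets were 1.13 on LC 1, 2.09 on L60 1 and 0.339 on L84 1, against -0.642 to -0.528 on the other 6 arrays. The 3 high arrays are all replicate 1 of their genotype, but LA 1 is not among them. The SD of scores over genes was 1.2 on LA 2 and 1.13 on L84 1, against 0.675 to 0.836 on the other 7.

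None of the 9 genes was called in any comparison, but the averaged scores of 3 of them separated the genotypes in the same way. Ccnd1, Ccnd2 and Cdk4 each scored lower on all 4 arrays of L84 and LA than on all 5 arrays of LC and L60, a pattern met by 621 of all genes (5.01%). This grouping of the lines was not among the planned comparisons and is given as a description. Among single probe sets the pattern held in 3 of 3 for Ccnd1, 3 of 7 for Ccnd2 and 2 of 3 for Cdk4. Differences between LA and LC were largest for Cdk4, at -1.87 SDs, Cdk6, at 1.79 SDs, and Cdkn1a, at -1.76 SDs. Whole skin mixes cell types, so fewer cells of a type and less RNA per cell cannot be told apart. The smallest adjusted p among the 9 was 1 for L60, 0.203 for L84 and 0.0937 for LA, the last 2 both of Ccnd1.

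**Figure D1:**
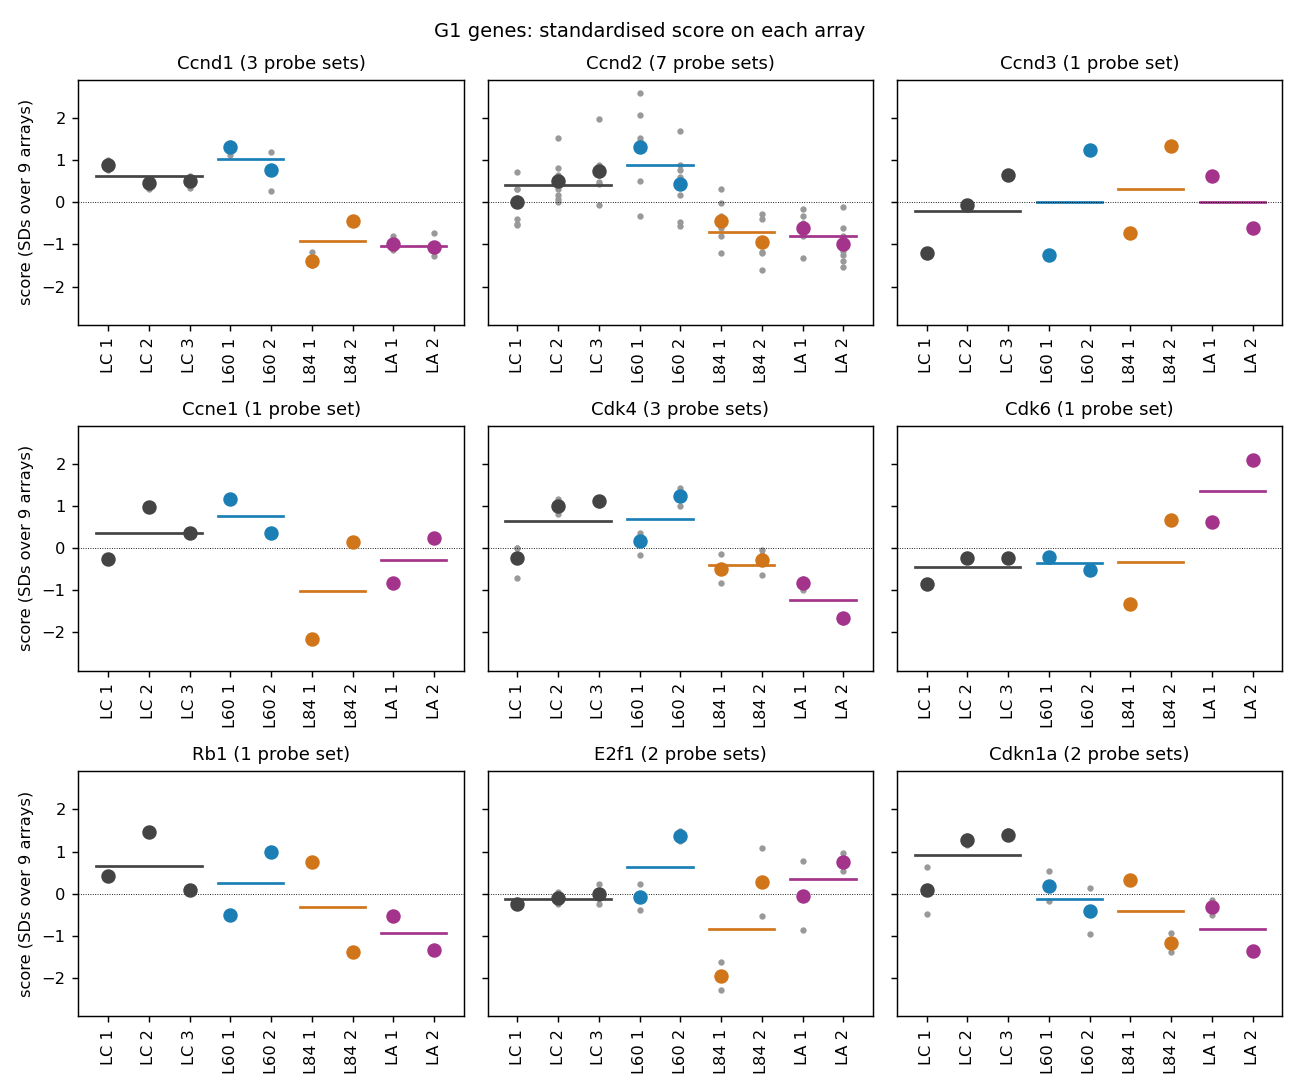
Score of each of the 9 genes (vertical axis, SDs over the 9 arrays) on each array (horizontal axis). Large points are gene scores, small grey points are the single probe sets, and horizontal bars are genotype means. For Ccnd1, Ccnd2 and Cdk4 the L84 and LA points lie below all LC and L60 points, and for Ccnd3 every genotype holds both high and low arrays.

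Ccnd1 encodes cyclin D1, the D-type cyclin best known as a sensor of growth factors. Its scores were 0.884, 0.444 and 0.502 on the LC arrays, 1.30 and 0.753 on L60, -1.38 and -0.444 on L84 and -0.992 and -1.06 on LA. The control and L60 arrays were all high and the L84 and LA arrays all low, with no overlap between these sets. Against LC the difference was -1.64 ± 0.344 SDs in LA (SE, n = 2 against 3, adjusted p = 0.0937). In L84 it was -1.52 ± 0.344 SDs (adjusted p = 0.203), and in L60 it was 0.416 ± 0.344 SDs (adjusted p = 1). The LA difference lay between -1.77 and -1.50 SDs over all 16 alternative analyses, with adjusted p from 0.0577 to 0.339. The L84 difference depended more on its arrays, at -1.05 SDs without L84 1 and -1.99 SDs without L84 2. Against L60, Ccnd1 differed by -2.05 ± 0.376 SDs in LA (adjusted p = 0.114) and by -1.94 ± 0.376 SDs in L84 (adjusted p = 0.308). An F test over the 4 genotypes gave Ccnd1 an adjusted p of 0.159, the smallest of the 9 genes; 0 of the 9 and 91 of all genes (0.734%) passed it. Without adjustment, 2 of the 9, Ccnd1 and Ccnd2, and 14.8% of all genes had a p under 0.05.

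The 3 Ccnd1 probe sets (1417419_at, 1417420_at and 1448698_at) varied together, with pairwise correlations of 0.914 to 0.969 over the 9 arrays. All 3 had their L84 and LA arrays below their LC and L60 arrays. Their differences ranged from -1.71 to -1.39 SDs in L84 and from -1.75 to -1.51 SDs in LA. Setting L84 1 against LC 1, both high in 18S, gave a Ccnd1 difference of -2.27 SDs, and L84 2 against the mean of LC 2 and LC 3 gave -0.917 SDs. LA had no array high in 18S, and its mean against LC 2 and LC 3 was -1.50 SDs. The direction was thus the same within each set of arrays.

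Ccnd2 encodes cyclin D2, which is likewise induced by growth signals. It was read by 7 probe sets, and its gene score was 0.00146, 0.505 and 0.733 on LC, 1.31 and 0.437 on L60, -0.448 and -0.941 on L84 and -0.622 and -0.980 on LA. Again no L84 or LA array reached the lowest control or L60 array. The differences from LC were 0.463 ± 0.377 SDs in L60 (adjusted p = 1), -1.11 ± 0.377 SDs in L84 (adjusted p = 0.362) and -1.21 ± 0.377 SDs in LA (adjusted p = 0.172). From L60 it differed by -1.68 ± 0.413 SDs in LA (adjusted p = 0.175) and by -1.57 ± 0.413 SDs in L84 (adjusted p = 0.439). Without the arrays high in 18S the L60 difference changed sign, to -0.182 SDs, while those of L84 and LA were -1.56 and -1.42 SDs.

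The 7 Ccnd2 probe sets were far less alike than those of Ccnd1, with pairwise correlations from 0.0510 to 0.964 and a median of 0.529. All 7 were lower in both L84 and LA than in LC, and the arrays did not overlap in 4 of them for L84 and in 5 for LA. Probe set 1416123_at was set by 1 array, with 2.58 on L60 1 and -0.788 to 0.00607 elsewhere. Probe set 1416124_at was high on LC 2 (1.51) and LC 3 (1.98) alone, with -0.608 to -0.315 on the other 7 arrays. Since these probe sets vary apart, the averaged score of Ccnd2 had an SD of 0.802 and its differences are on a narrower scale than those of a gene with 1 probe set.

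Ccnd3, encoding cyclin D3, showed no separation of the genotypes. Its single probe set scored -1.20, -0.0665 and 0.638 on LC, -1.25 and 1.23 on L60, -0.724 and 1.34 on L84 and 0.623 and -0.604 on LA. Every genotype spanned high and low arrays, and the 3 arrays high in 18S were among its 4 lowest. Differences from LC were 0.203 SDs in L60, 0.518 in L84 and 0.218 in LA, each ± 1.13 (adjusted p = 1, 0.909 and 0.924). Since each probe set is scaled to an SD of 1 over the arrays, this error is wide where genotype means lie close together. It does not show what size of difference could have been detected.

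Ccne1, encoding cyclin E1, scored -0.250, 0.972 and 0.354 on LC, 1.16 and 0.354 on L60, -2.16 and 0.142 on L84 and -0.820 and 0.244 on LA. The genotypes overlapped, and the L84 mean rested on its first array. Its difference from LC was -1.37 ± 0.844 SDs in L84 (adjusted p = 0.605), which became -0.217 SDs without L84 1. In LA it was -0.647 ± 0.844 SDs (adjusted p = 0.671), and in L60 it was 0.398 ± 0.844 SDs (adjusted p = 1).

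**Figure D2:**
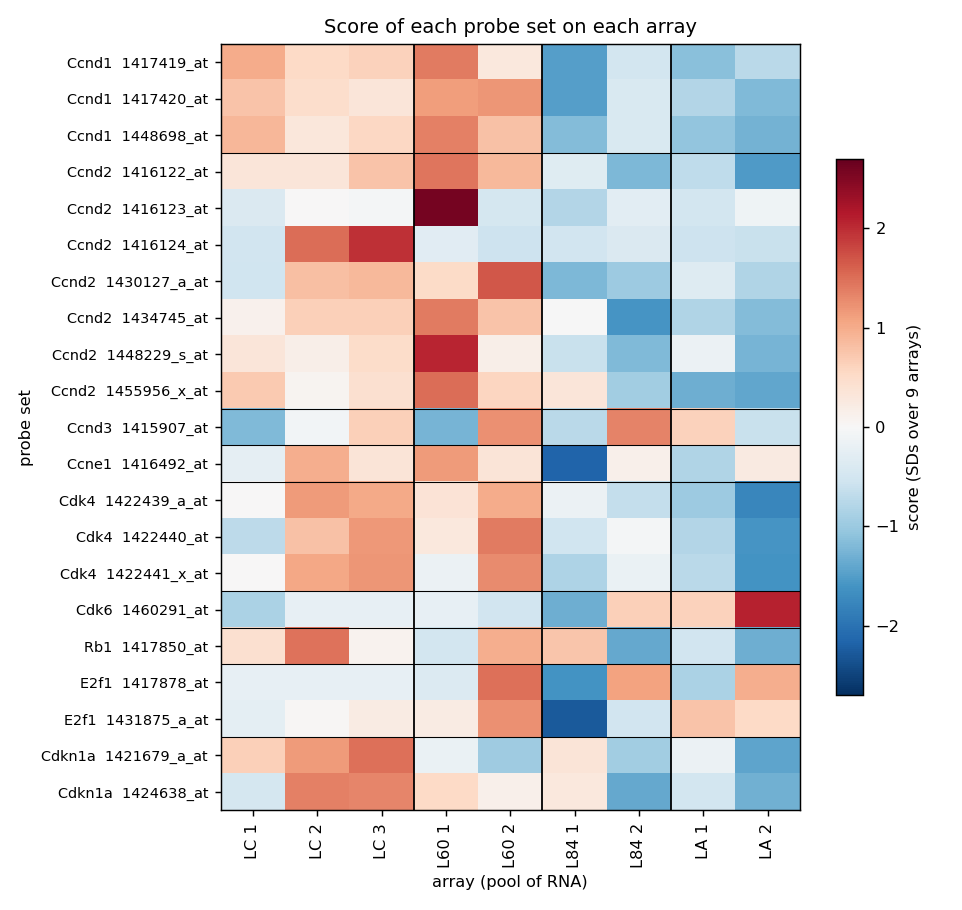
Scores of the 21 probe sets (rows, by gene) on the 9 arrays (columns, by genotype), with red above and blue below the probe set's mean over all arrays, in SDs. The 3 rows of Ccnd1 and the 3 of Cdk4 look alike within each gene. Among the 7 rows of Ccnd2, 1416123_at is high on L60 1 alone and 1416124_at on LC 2 and LC 3 alone.

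Cdk4, the kinase partner of the D cyclins in most dividing cells, had the largest difference between LA and LC. It scored -0.234, 1 and 1.12 on LC, 0.158 and 1.23 on L60, -0.505 and -0.291 on L84 and -0.83 and -1.65 on LA. The LA arrays were the lowest, the L84 arrays came next, and neither line overlapped LC or L60, although LC 1 lay just above L84 2. The differences from LC were -1.87 ± 0.586 SDs in LA (adjusted p = 0.175), -1.03 ± 0.586 SDs in L84 (adjusted p = 0.575) and 0.0637 ± 0.586 SDs in L60 (adjusted p = 1). From L60, Cdk4 differed by -1.93 ± 0.642 SDs in LA (adjusted p = 0.258) and by -1.09 ± 0.642 SDs in L84 (adjusted p = 0.770). LA lay below L84 by a difference of -0.843 ± 0.642 SDs (adjusted p = 0.621). The 3 probe sets correlated at 0.912 to 0.943, and their LA differences ranged from -2.09 to -1.60 SDs. In 1422440_at, L84 did overlap LC, with -0.712 on LC 1 against -0.531 and -0.0494 on L84. Against LC 2 and LC 3 alone, arrays low in 18S like those of LA, the LA mean differed by -2.30 SDs. Among the arrays high in 18S, L84 1 differed from LC 1 by -0.271 SDs, while among the others L84 2 differed from LC 2 and LC 3 by -1.35 SDs.

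Cdk6, the other kinase that D cyclins use, went the opposite way from Cdk4 in LA. Its single probe set scored -0.851, -0.231 and -0.231 on LC, -0.218 and -0.509 on L60, -1.32 and 0.652 on L84 and 0.627 and 2.08 on LA. Both LA arrays exceeded all LC and L60 arrays, but L84 2 was above LA 1. Against LC the LA difference was 1.79 ± 0.740 SDs (adjusted p = 0.258). It was 2.51 SDs without LA 1 and 1.06 SDs without LA 2, the array with the widest scores. L84 and L60 differed from LC by 0.106 and 0.0740 SDs (± 0.740, adjusted p = 0.98 and 1). LA minus L84 was 1.68 ± 0.811 SDs (adjusted p = 0.513), and -0.0251 SDs without L84 1 and LA 2. LC 2 and LC 3 held the same Cdk6 value, and such ties narrow the spread that the test uses.

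Rb1, the pocket protein that the D cyclin kinases inactivate, scored 0.428, 1.46 and 0.0936 on LC, -0.491 and 0.988 on L60, 0.743 and -1.37 on L84 and -0.524 and -1.32 on LA. Both LA arrays were below the lowest control, while L60 and L84 each had 1 high and 1 low array. The differences from LC were -1.58 ± 0.882 SDs in LA (adjusted p = 0.360), -0.974 ± 0.882 SDs in L84 (adjusted p = 0.722) and -0.412 ± 0.882 SDs in L60 (adjusted p = 1). In L84 the value came to 0.0834 SDs without L84 2.

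E2f1, the transcription factor that Rb1 restrains and itself an E2F target, gave no separation. It scored -0.246, -0.0974 and -0.000601 on LC, -0.0712 and 1.36 on L60, -1.94 and 0.284 on L84 and -0.0416 and 0.753 on LA. L60 2 was the highest array and L84 1 the lowest, while L60 1 and LA 1 lay within the narrow range of the controls. Its differences from LC were 0.761, -0.715 and 0.470 SDs in L60, L84 and LA, each ± 0.802 (adjusted p = 1, 0.787 and 0.752). Leaving out L60 2 brought the L60 difference to 0.0435 SDs, and leaving out L84 1 turned that of L84 to 0.399 SDs. The 2 probe sets correlated at 0.591, and 1417878_at held the same value, -0.231, on all 3 LC arrays.

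Cdkn1a, the inhibitor p21, was the only one of the 9 genes with a negative difference of more than 1 SD in all 3 lines. It scored 0.0799, 1.26 and 1.40 on LC, 0.175 and -0.411 on L60, 0.325 and -1.15 on L84 and -0.321 and -1.36 on LA. LC 2 and LC 3 were the highest arrays and LC 1 was well below them, so that only LA stayed clear of all 3 controls. The differences were -1.03 ± 0.691 SDs in L60 (adjusted p = 1), -1.33 ± 0.691 SDs in L84 (adjusted p = 0.539) and -1.76 ± 0.691 SDs in LA (adjusted p = 0.244). The values differed with the control array used. Among the arrays high in 18S, L60 1 and L84 1 differed from LC 1 by 0.0951 and 0.245 SDs. Among the other arrays, the differences from LC 2 and LC 3 were -1.74 SDs for L60 2, -2.49 SDs for L84 2 and -2.17 SDs for the LA mean. Without L84 2 the L84 difference was -0.591 SDs, and without LA 2 the LA difference was -1.24 SDs. The 2 probe sets correlated at 0.791, with L60 differences of -1.66 and -0.403 SDs and LA differences of -1.89 and -1.63 SDs.

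**Figure D3:**
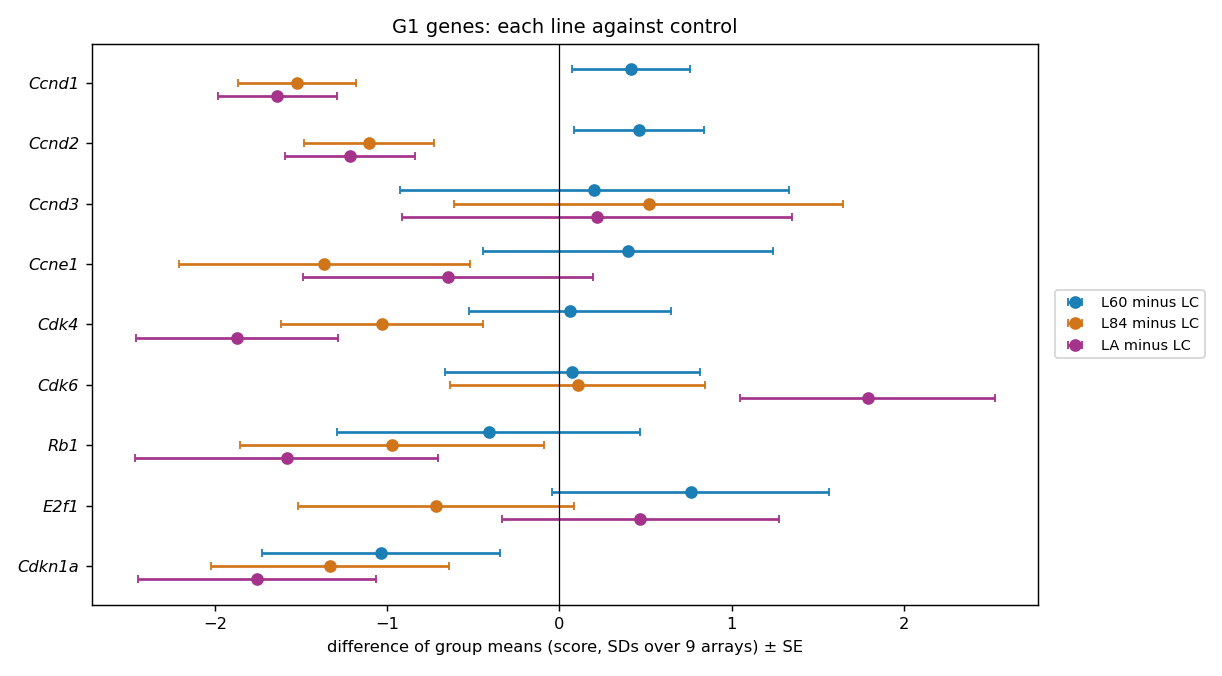
Difference of each line's mean score from the LC mean (horizontal axis, SDs over the 9 arrays) for the 9 genes, with bars of 1 SE from the fit over all arrays. Ccnd1, Ccnd2 and Cdk4 lie left of 0 in L84 and LA and right of 0 in L60, Cdk6 lies right of 0 by 1.79 SDs in LA, and Cdkn1a lies left of 0 in all 3 lines.

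Across the 9 genes, 7 were higher and 2 lower in L60 than in LC, where 54.8% of all genes were higher. In L84, 2 were higher and 7 lower, where 50.1% of all genes were higher. In LA, 3 were higher and 6 lower, where 56.1% of all genes were higher. The median difference of the 9 was 0.203 SDs in L60, -1.03 in L84 and -1.21 in LA. The 3 comparisons share the LC arrays. At an unadjusted p under 0.05 the counts were 0 of 9 in L60 (4.72% of all genes), 2 of 9 in L84 (12.2%) and 3 of 9 in LA (20.8%). With moderated variance, 0 members and 0 of all genes were called in any comparison.

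Arrays that do not overlap were counted too, with the share over all genes beside each count. In L60, 0 of the 9 genes lay clear of the LC arrays, where 25.1% of all genes did in either direction. In L84, Ccnd1, Ccnd2 and Cdk4 lay wholly below LC, 3 of 9 against 14.7% of all genes, and 0 lay above, against 13.8%. In LA, Ccnd1, Ccnd2, Cdk4, Rb1 and Cdkn1a lay wholly below LC, 5 of 9 against 21% of all genes, and Cdk6 alone lay above, 1 of 9 against 27.8%. Among the 21 single probe sets, 11 in L84 and 14 in LA lay wholly below LC, against 13.8% and 21.2% of all probe sets. Probe sets of 1 gene share a transcript and are not independent, and 10 of the 21 belong to Ccnd1 and Ccnd2.

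Between the lines, 0 of the 9 were called for L84 against L60 (14 of all genes, 0.113%), LA against L60 (78, 0.629%) or LA against L84 (2, 0.0161%). Against L60, 7 of the 9 were lower in LA (median -1.04 SDs) and 7 in L84 (median -1.09 SDs), comparisons that share the L60 arrays. At an unadjusted p under 0.05 the counts were 2 of 9 for L84 against L60 (8.03% of all genes), 3 of 9 for LA against L60 (16.2%) and 0 of 9 for LA against L84 (10.6%). The median difference of the 9 genes between LA and L84 was -0.113 SDs. Cdk4 was the one gene whose 2 LA arrays both lay below both L84 arrays, 1 of 9 against 13.6% of all genes.

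Other genes of the pathway were read from lists of 28 measured G1 partners, 22 E2F target genes of S phase, 11 proliferation markers and 19 p53 target genes, 80 in all. In LA, 9 of the 80 (11.2%) fell against LC and 0 rose, where 0.984% of all genes fell. In L60 and in L84, 0 of the 80 were called against LC, with 9 and 19 at an unadjusted p under 0.05. These calls rested on the full set of 9 arrays. The 9 calls in LA became 0 without LC 2, 0 without LA 2 and 0 without the 3 arrays high in 18S. Of the 9, 2 stayed called without LC 1, LC 3 or LA 1, and 4 without either L60 array. Without either L84 array 12 list genes were called, 7 of them among the 9, and with the LC and LA arrays alone 3 were called, 2 of them among the 9. All 9 genes kept their direction in each of these analyses, but they had been called on these same arrays, which makes a change of sign unlikely.

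Among G1 partners, 2 fell in LA. Cks1b encodes a small protein that the ubiquitin ligase of p27 needs to recognise p27. It scored 0.757, 0.643 and 0.538 on LC, 0.488 and 0.908 on L60, 0.0592 and -0.177 on L84 and -1.58 and -1.63 on LA. The LA arrays stood far below all others, a difference of -2.25 ± 0.154 SDs from LC (adjusted p = 0.00819). Tfdp1, the partner with which E2F factors bind DNA, scored 0.252, 0.263 and 0.362 on LC, 1.29 and 0.942 on L60, 0.252 and -0.171 on L84 and -1.62 and -1.57 on LA. In LA it fell by 1.89 ± 0.162 SDs (adjusted p = 0.0161). In LA, 13 of the 28 partners were higher and 15 lower than in LC, with a median of -0.119 SDs. In L84, 10 were higher and 18 lower (median -0.517 SDs), and the smallest p-values belonged to Cks1b (-0.705 SDs, adjusted p = 0.195), Cdc37 (-1.21 SDs) and Skp2 (-0.982 SDs). In L60, 18 were higher and 10 lower (median 0.166 SDs), led by Tfdp1 (0.824 SDs), Rbl1 (1.06 SDs) and Cdc37 (-1.04 SDs), none of them called. Some partners outside the naming rule are also given for their role, chosen after their values were seen. Cdk2, the kinase of cyclin E, differed from LC by 1.24 ± 0.453 SDs in L60 (adjusted p = 1) and by -1.28 ± 0.453 SDs in LA (adjusted p = 0.212). The inhibitor Cdkn1c, p57, differed by -2.31 ± 0.504 SDs in LA (adjusted p = 0.1), and its relative Cdkn1b, p27, by 0.355 ± 0.432 SDs (adjusted p = 0.647).

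Genes that E2F factors switch on for S phase leaned one way in LA and the other in L60. Of the 22, 21 were lower in LA than in LC and 5 fell, with a median of -1.30 SDs. Of these 5, 4 encode subunits of the MCM helicase that opens DNA at replication origins. Mcm7 scored 0.292, 0.567 and 0.454 on LC, 1.06 and 1.11 on L60, -0.549 and -0.356 on L84 and -1.17 and -1.42 on LA. The genotypes did not overlap, with L60 above LC, L84 below it and LA lowest. In LA Mcm7 fell by 1.73 ± 0.122 SDs (adjusted p = 0.00877), and its differences in L84 (-0.890 SDs, adjusted p = 0.0856) and L60 (0.651 SDs, adjusted p = 0.591) were not called. Mcm2 fell by 1.99 ± 0.23 SDs (adjusted p = 0.0323), Mcm6 fell by 1.90 SDs (adjusted p = 0.0414) and Mcm4 fell by 1.63 SDs (adjusted p = 0.0448). The remaining called gene, Rfc4 of the clamp loader, was outside the naming rule and differed by -1.54 SDs (adjusted p = 0.0428). In L60 all 22 were higher than in LC, 0 were called, 5 had an unadjusted p under 0.05 and the median was 0.634 SDs. Pola1, the catalytic subunit of DNA polymerase alpha, stood out there, with 1.40 and 1.75 on L60 against -0.468 to -0.127 on LC (1.86 ± 0.173 SDs, adjusted p = 0.142). In L84, 6 were higher and 16 lower, with 0 called and a median of -0.437 SDs. The mean score of the list was -0.647 on L84 1 and 0.0833 on L84 2, against 0.153 to 0.267 on LC. After Mcm7, the smallest p-values in L84 belonged to Rfc4 (-1.02 SDs) and Tk1 (-1.26 SDs), and in L60, after Pola1 and Mcm7, to Rfc4 (0.897 SDs).

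Proliferation markers leaned the same ways. All 11 were lower in LA than in LC (median -1.90 SDs) and 2 fell. Mki67, the antigen used to stain cycling cells, scored 0.740, 0.519 and 0.454 on LC, 1.05 and 0.842 on L60, -0.500 and 0.0214 on L84 and -1.45 and -1.68 on LA. In LA it fell by 2.13 ± 0.195 SDs (adjusted p = 0.0176), and Cdc20, an activator of the anaphase-promoting complex, fell by 1.90 ± 0.27 SDs (adjusted p = 0.0492). Cdc20 and Mcm4 each had a probe set with tied values among the LC arrays. All 11 were lower in L84 too (median -0.946 SDs) and all 11 higher in L60 (median 0.374 SDs), with 0 called in either. The 2 L84 arrays were unlike, with a mean score of the list of -1.04 on L84 1 and 0.096 on L84 2. On LC it was 0.488 to 0.559. The smallest p-values in L84 belonged to Cdc20 (-1.16 SDs), Mki67 (-0.810 SDs) and Aurka (-1.25 SDs), and in L60 to Mki67 (0.375 SDs), Cdk1 (0.472 SDs) and Ccnb2 (0.388 SDs).

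The p53 targets, which share with Cdkn1a a known regulator, gave no called gene in any line. They split 10 higher and 9 lower in L60, 11 and 8 in L84 and 10 and 9 in LA, with medians of 0.152, 0.0401 and 0.243 SDs, beside 0.0777, 0.00308 and 0.247 SDs over all genes. The smallest p-values in LA belonged to Plk2, a stress-responsive kinase (-2.00 SDs, adjusted p = 0.131), Gadd45a (-1.63 SDs, adjusted p = 0.284) and Phlda3 (-1.79 SDs, adjusted p = 0.295). In L84 they belonged to Plk2 (-1.70 SDs, adjusted p = 0.317), Aen (-1.32 SDs, adjusted p = 0.386) and Pmaip1 (-1.38 SDs, adjusted p = 0.518). In L60 they belonged to Aen (-0.858 SDs), Mdm2, the ligase that degrades p53 (-1.01 SDs), and Sesn2 (-0.917 SDs), each with an adjusted p of 1.

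**Figure D4:**
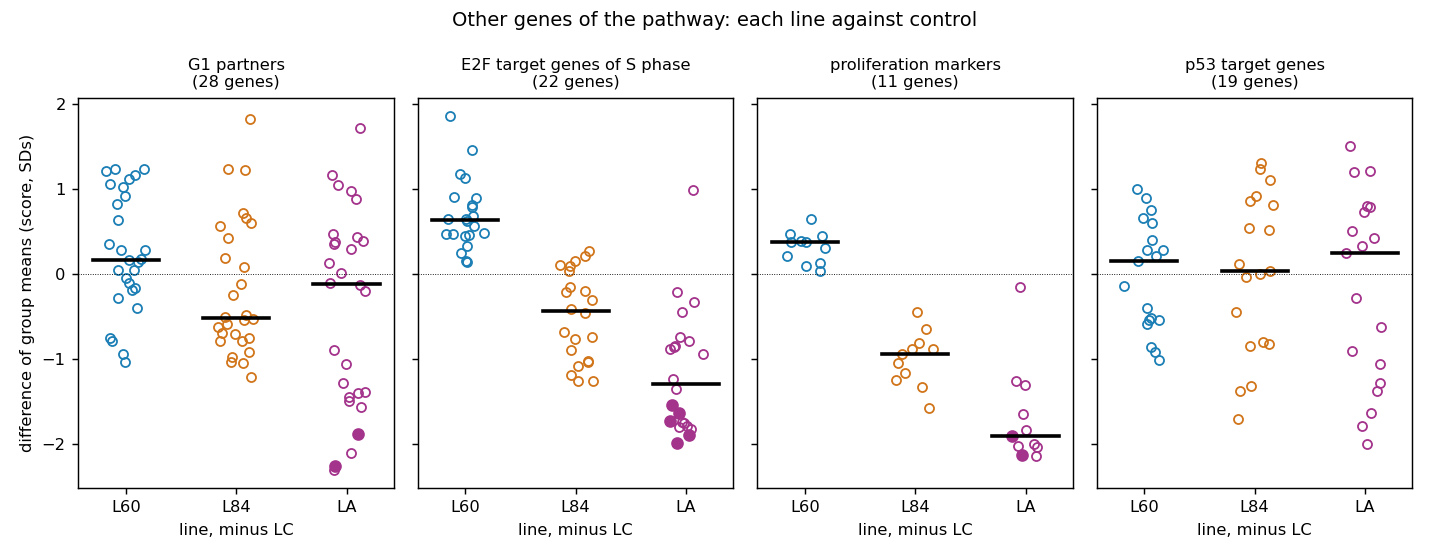
Difference from LC (vertical axis, SDs) of each gene of the 4 lists in L60, L84 and LA. Filled points are called genes, open points are not, and black bars are medians. Filled points occur in LA alone: 2 G1 partners, 5 E2F targets and 2 proliferation markers, all below 0.

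Tests between the lines on all 9 arrays also gave calls for LA against L60. Of the 80 list genes, 9 were lower in LA than in L60 by the test and 0 higher, where 0.46% of all genes were lower. They comprised 6 E2F targets, 2 G1 partners and 1 proliferation marker. These calls became 0 to 1 on leaving out any single LC, L60 or LA array, and 0 with moderated variance. For L84 against L60 and for LA against L84, 0 of the 80 were called.

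Hair follicle genes were low on the same arrays as Ccnd1 and Cdk4. All 9 measured hair shaft keratins fell in both L84 and LA, and the mean score of this list was 1.09 to 1.18 on LC, 0.142 and 0.347 on L60, -1.04 and -0.951 on L84 and -0.987 and -0.909 on LA. Hair matrix regulators were lower in 9 of 9 in both lines, with 3 called in each, and their mean score was 0.493 to 1.04 on LC, 0.279 and 0.389 on L60 and -0.953 to -0.612 on L84 and LA. L60 had lower scores than LC for all 9 shaft keratins, with 0 called, as for all genes in that comparison. At an unadjusted p under 0.05, all 9 of these keratins were lower in L60, against 4.72% of all genes in either direction. Of the matrix genes, 7 of 9 were lower in L60, 2 of them at that threshold. The L60 mean scores of Ccnd1, E2F targets and proliferation markers were above those of LC. Melanocyte genes were lower in 5 of 5 in L84 and LA, with 2 and 3 called. Basal keratinocyte markers were higher in 7 of 8 in all 3 lines, with 0 called in L60 and 2 in each of L84 and LA. Markers of macrophages and dendritic cells were higher in 9 of 9 in LA, and the 2 called were Cd207 and Cd74. Skeletal muscle markers were higher in 8 of 8 in L84 and LA, with 0 called, and lymphocyte markers in 7 of 7 in LA, with 0 called. Fibroblast markers were higher in 7 of 7 in LA, endothelial markers in 4 of 6 and adipocyte markers in 2 of 4, with 0 called, and suprabasal keratinocyte markers split 3 and 3 in each line, with 1 called higher in LA. Scores hold no level, so whether a marker was present at all could not be checked. The part of these lists in the scores of the G1 genes was not tested.

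**Figure D5:**
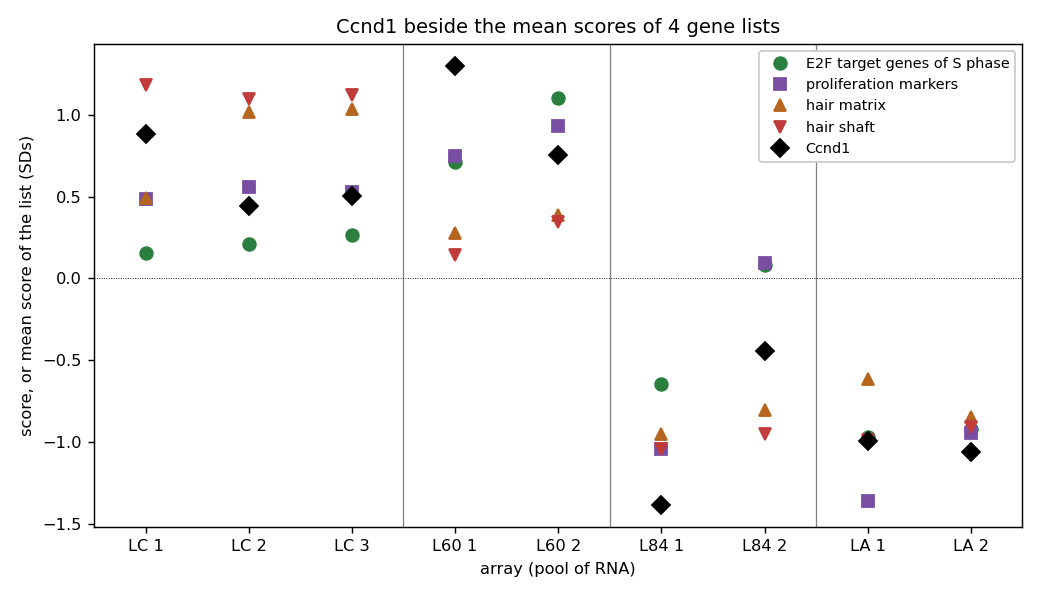
Score of Ccnd1 (black diamonds) beside the mean scores of 4 gene lists (vertical axis, SDs) on each array (horizontal axis). The score of Ccnd1 and the list means of hair matrix and hair shaft genes are positive on every LC and L60 array. They are negative on every L84 and LA array, while the means of E2F targets and proliferation markers are at 0.0833 and 0.096 on L84 2.

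The 9 genes did not vary as 1 block over the arrays. Ccnd1 and Ccnd2 correlated at 0.846 over the 9 arrays, Ccnd2 and Cdk4 at 0.752 and Ccnd1 and Ccne1 at 0.717, while Cdk6 and Rb1 ran against each other at -0.759. These are descriptions over 9 arrays that share genotypes and array effects. Among 12116 genes with curated names, the 3 most like Ccnd1 were Cdca5 (r = 0.979), Spdl1 (0.976) and Pdk4 (0.973), and 61 genes exceeded 0.9. Cdca5 and Spdl1 act in mitosis, at sister chromatid cohesion and the spindle. Those most like Cdk4 were Prmt5 (0.990), Bzw1 (0.984) and Fbl (0.984), with 129 genes over 0.9. For Cdkn1a they were Vps35 (0.977), Srp68 (0.973) and Lsr (0.972), with 114 over 0.9, and for Ccnd2 they were Klhl36 (0.980), Emg1 (0.965) and Hopx (0.958), with 61. Cdk6 had the most company, 319 genes over 0.9, led by Ccdc191 (0.990), Serpinb9c (0.989) and Ifnab (0.988). Ccnd3, at the other end, had 7, led by Ctsh (0.962), Carhsp1 (0.950) and Ndufa3 (0.943). Ccne1 was most like Nkx2-6 (0.957), Prrt1 (0.953) and Pkmyt1 (0.935), with 19 over 0.9. Rb1 was most like Xpot (0.954), Inafm2 (0.938) and Pgam5 (0.933), and E2f1 most like Sstr5 (0.981), Acot3 (0.967) and Lrr1 (0.965), each with 18 over 0.9.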

How the data were processed

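Total RNA from 30 mg of skin per extract was hybridised as 9 pools to Affymetrix arrays, per the labels. The submitters' processing notes name RMA and no version. The authors deposited a score that is standardised for each probe set (largest row mean 1.86e-07), and whether they were on a log scale before that is not given in the sources used here. Of 22690 probe sets, 20380 named 1 gene, 691 several and 1555 none, and 64 were controls. A gene's score was the mean of the probe sets naming it alone (12393 genes, 4956 with more than 1 probe set). Some values were tied in 44.3% of probe sets, and ties within a genotype occurred for 2 of the 9 members and 5 of 25 named list genes.

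A linear model of the 4 genotype means (limma 3.58.1, R 4.3.3) used all 9 arrays, left 5 residual degrees of freedom and had no variance moderation, with Benjamini-Hochberg adjustment over all genes. The number of arrays limits the precision. Members and lists were chosen with earlier results of these data known. Named were all members, up to 4 called genes of a list by size, or the 3 of smallest p where none was called, and the 3 genes most correlated with each member. Alternatives were leaving out each array, the 3 arrays high in 18S or the 2 of widest scores, a replicate block, array weights, moderated variance, only the groups compared, single probe sets and array medians set to 0.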

Additional observations from a re-analysis of the deposited data

Results flagged for a closer look

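Among the named genes of the pathway lists, 7 differed between LA and L60 by limma's test of the difference between the lines itself, with all of them lower in LA on both arrays. These lines have no array in common, but the test took its error from all 9 arrays. Tfdp1 differed by -2.71 SDs (adjusted p = 0.0165) and Cks1b by -2.31 SDs (adjusted p = 0.0176). Among the E2F targets, Pola1 differed by -2.72 SDs (adjusted p = 0.0172), Mcm6 by -2.58 SDs (adjusted p = 0.0413), Mcm4 by -2.54 SDs (adjusted p = 0.0347) and Mcm2 by -2.47 SDs (adjusted p = 0.0406). Mki67 differed by -2.51 SDs (adjusted p = 0.0255). Over the alternatives these directions held, though the genes had been picked by their calls on these same arrays. The 9 list genes called between LA and L60 became 0 to 1 on leaving out any single LC, L60 or LA array. With the L60 and LA arrays alone, 1 list gene and 3 of all genes were called. With moderated variance, with a replicate block or without the arrays high in 18S, 0 list genes were called. Of the 9 G1 genes, 0 differed between LA and L60 by the test on all 9 arrays, with 3 at an unadjusted p under 0.05.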

How the results depend on the processing

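The count of members called was 0 in every comparison under all alternatives run. Changes of sign were counted for each line against LC, for Ccnd1, Ccnd2 and Cdk4 against L60, and for Cdk4 and Cdk6 in LA against L84. The other differences of members between the lines were not counted. Of the 560 alternative values counted, 29 changed sign. With array weights these were Ccnd3 (-0.0794), Cdk4 (-0.226) and Cdk6 (-0.0695) for L60 minus LC, Cdk6 (-0.0377) for L84 minus LC and Ccnd3 (-0.0638) for LA minus LC. With array medians set to 0, Cdk4 turned to -0.00712 for L60. Without the arrays high in 18S the L60 differences of Ccnd2 (-0.182), Ccne1 (-0.309), Cdk6 (-0.278) and Rb1 (0.211), that of E2f1 for L84 (0.333) and that of Ccnd3 for LA (-0.276) turned. Without the arrays of widest scores E2f1 for L84 (0.399) and Cdk6 for LA minus L84 (-0.0251) turned. Leaving out 1 array at a time gave ranges for L60 minus LC of -1.04 to 1.44 for Ccnd3, -0.472 to 0.600 for Cdk4, -0.133 to 0.220 for Cdk6, -0.00479 to 0.801 for Ccne1 and -1.15 to 0.328 for Rb1. For L84 minus LC they were -0.515 to 1.55 for Ccnd3, -0.878 to 1.09 for Cdk6, -2.03 to 0.0834 for Rb1 and -1.83 to 0.399 for E2f1, and for LA minus LC -0.395 to 0.832 for Ccnd3.

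The labels do not say that replicate numbers pair the pools, and deviations of same-numbered arrays correlated at -0.0833 to 0.345, so the numbers were not taken as pairs. The 3 arrays high in 18S are all numbered 1. With the replicate number as a block, 0 members were called, the 9 list genes called for LA became 0, and the 223 genes called for LA became 1. Moderated variance gave 0 list genes for LA, array weights 13, and the arrays without the widest scores 1. The 45 named differences of list genes kept their direction in all 720 values under these alternatives. They had been picked from these same arrays by a call or a small p, which makes a change of sign unlikely. Their kept direction is therefore no separate support. Of these differences 15 were called, and 175 of their 240 alternative values lost the call. A score holds no signal over background, so the limit set by dim probe sets is unknown.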
